A study of Mus musculus with 4 samples.

Results

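The Apoe gene cluster of the mouse lies on chromosome 7 and holds Apoe, Apoc1, Apoc4 and Apoc2 beside Tomm40 and Nectin2. Rows of the authors' deposited tables were taken when they lay inside 1 of these 6 genes or within 10000 bp of it (GENCODE release M21 on GRCm38). This gave 6 of the 3389 deposited regions and 301 of the 269406 deposited positions. The widened genes join into 1 window of 98905 bp, from 19661579 to 19760483. The genes were chosen by place and with the regions there already known, and the deposited rows were themselves selected on the contrast described here: every listed position carries a deposited posterior probability of at least 0.95 that the level differs, and a difference above 0.1 gives these probabilities back. All values at the cluster are therefore a description, and no test was added.

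The series is whole-genome bisulfite sequencing of microglia, the macrophages of the brain, sorted by flow cytometry from untreated C57BL/6J mice 3 months of age. Of the 4 samples, 2 were wild type (WT) and 2 were knockouts (IRF8KO) of Irf8, which encodes a transcription factor of the macrophage lineage. The labels give neither the Irf8 allele nor the sex, and do not say whether the samples of a group came from separate mice. Both tables hold the authors' comparison of the groups and no value per sample, so the spread within a group could not be seen beyond the deposited standard errors, and the read depth behind each value is unknown. The headers number the groups and name no genotype. The groups are called the first and the second group, a difference is the first minus the second, and neither number was assigned to WT or IRF8KO. The identity of the sorted cells was not checked, since no expression values were analysed here.

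Apolipoprotein E is the main lipid carrier made in the brain. Astrocytes secrete it, microglia raise it strongly in disease-associated states, and cells take it up through receptors of the LDL receptor family. The products of Apoc1, Apoc2 and Apoc4 are small exchangeable apolipoproteins of plasma lipoproteins, and that of Apoc2 activates lipoprotein lipase. Tomm40 encodes the channel of the mitochondrial outer membrane translocase and Nectin2 an adhesion protein. In macrophages the apolipoprotein genes share enhancers downstream of Apoe that respond to liver X receptors, and enhancers in use are commonly poor in CpG methylation.

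The sequences over which the groups differed are of unlike kinds, and 5 stretches are shown for that reason. All are GRCm38 on the minus strand, whose sequence the transcripts of all 6 genes carry, and are read from 5′ to 3′. Capitals mark each CpG with at least 1 deposited position. The first is the part of a region upstream of Apoc4 (chr7:19681480-19681684), where all 4 CpGs were listed. The second holds 4 closely spaced CpGs of a region between Apoc4 and Apoc1 (chr7:19684066-19684165). The third, with 9 CpGs at the border of intron and exon 3 of Apoc1, contains an alternating CG run beside a TG run (chr7:19691809-19691908). The fourth is a whole region in the coding part of Apoe exon 4 with 7 CpGs (chr7:19696718-19696784), and the last is Apoe exon 3 with 6 CpGs (chr7:19697479-19697647).
Upstream of Apoc4: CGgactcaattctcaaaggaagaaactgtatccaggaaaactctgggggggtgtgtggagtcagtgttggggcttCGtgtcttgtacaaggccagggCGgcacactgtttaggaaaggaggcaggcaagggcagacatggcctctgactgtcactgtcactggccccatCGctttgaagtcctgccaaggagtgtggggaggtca
Between Apoc4 and Apoc1: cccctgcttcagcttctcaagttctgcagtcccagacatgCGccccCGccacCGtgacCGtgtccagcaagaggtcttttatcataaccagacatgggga
Apoc1: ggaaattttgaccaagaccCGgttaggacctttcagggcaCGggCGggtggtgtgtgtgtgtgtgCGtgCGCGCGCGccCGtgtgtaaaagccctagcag
Apoe exon 4: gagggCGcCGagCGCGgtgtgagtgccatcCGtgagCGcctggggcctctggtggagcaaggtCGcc
Apoe exon 3: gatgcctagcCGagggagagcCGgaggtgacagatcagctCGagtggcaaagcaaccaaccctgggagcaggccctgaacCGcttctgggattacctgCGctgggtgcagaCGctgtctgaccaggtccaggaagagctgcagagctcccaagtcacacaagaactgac

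All 6 regions were higher in the first group, against 53.3% of all deposited regions. They lay within 16398 bp, from the start of Apoc4 to intron 2 of Apoe, and together held 194 cytosines in 3521 bp. Of the 301 listed positions, 299 were higher in the first group, against 61.9% of all listed positions. A deposited false discovery rate (FDR) under 0.05 was reached by 117 of the 301 positions, or 38.9%, against 18.7% of all listed positions, and all 117 were higher in the first group. Neighbouring positions share fitted values: the 301 positions carried 121 distinct pairs of levels and formed 10 clusters within 500 bp. These counts therefore overstate the number of separate differences. Of the 301 positions, 258 lie on a CpG of the reference, and so do 96 of the 117 with an FDR under 0.05. Single positions among the other 43 are called off CpG where named.

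**Figure D1:**
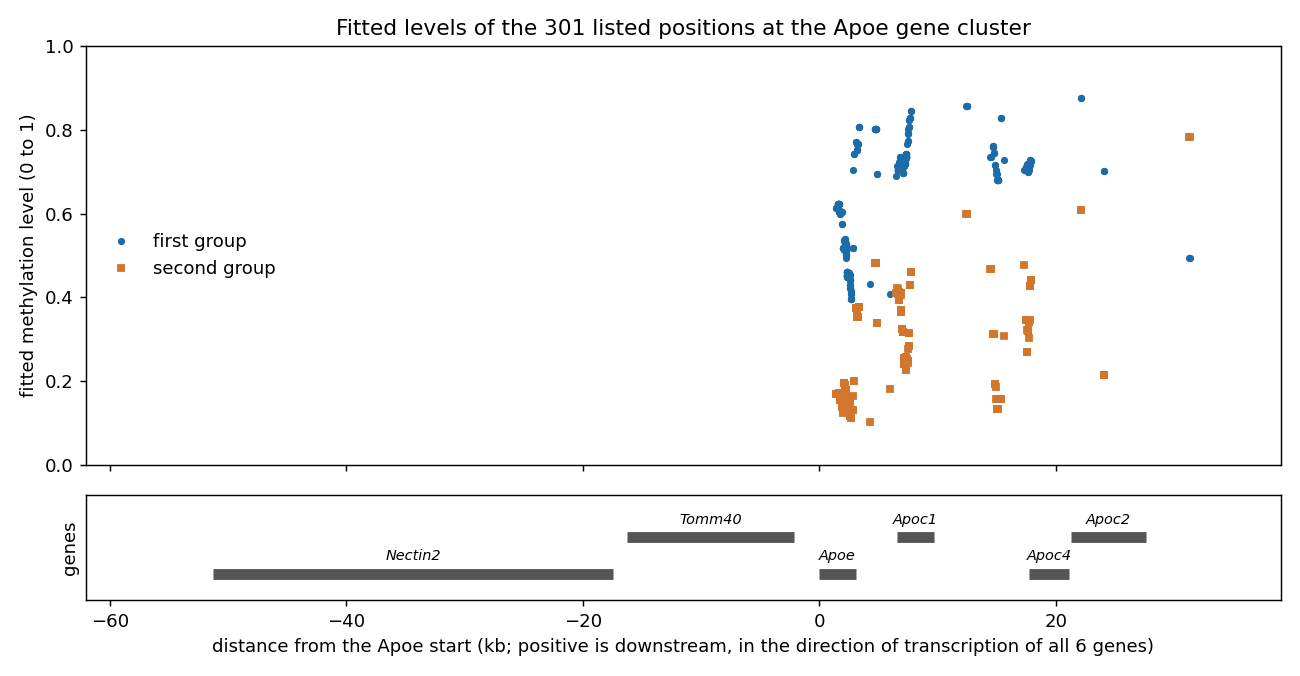
Fitted methylation levels (0 to 1, vertical axis) of the 301 listed positions by distance in kb from the Apoe start, blue circles for the first and orange squares for the second group, with the 6 genes as bars below. Listed positions form 10 separate clusters, from inside Apoe, 1406 bp past its start, to beyond the end of Apoc2, and none lies in Tomm40 or Nectin2.

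Apoe (ENSMUSG00000002985.16, chromosome 7, 19696109 to 19699188) was touched by 3 regions, all in its downstream part. The regions lie over the 3′ end, inside exon 4, and from exon 4 through exon 3 into intron 2. Inside the gene 135 positions were listed, all higher in the first group. An FDR under 0.05 was deposited for 30 of these 135, where 18.7% of all listed positions had one. The deposited differences of the 135 positions ran from 0.280 to 0.540, with a median of 0.307 and a median standard error of 0.0937.

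The region over the 3′ end spans 19695813 to 19696369. In transcript Apoe-201 it covers 98 bp of untranslated exon 4 and 459 bp past the transcript's end, and the longer Apoe-206 reaches 261 bp into it. The authors' deposited table gives levels of 0.739 in the first and 0.311 in the second group, a difference of 0.427. Of its 19 positions, 6 had an FDR under 0.05. The largest test statistic of the deposited table there, at position 19696277, came with levels of 0.741 and 0.201, a difference of 0.540 ± 0.101 (deposited standard error) and an FDR of 0.000293.

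Inside the coding part of exon 4, which encodes most of the mature protein, levels were lower in both groups. The region there spans 19696718 to 19696784, and the authors' deposited table gives 0.453 in the first and 0.152 in the second group, a difference of 0.301 over 16 cytosines. None of the 16 positions had an FDR under 0.05, with deposited FDRs from 0.319 to 0.453 and a median standard error of 0.0915. It is the stretch printed above for exon 4, with 10.4 CpGs per 100 bp against a median of 1.89 over all deposited regions, a density that 99.6% of the regions do not exceed. The region is 67 bp long against a median of 199 bp, and a density over a short stretch depends on where its ends fall. Between it and the neighbouring regions of Apoe, 35 and 21 positions were listed. Their deposited differences, from 0.280 to 0.309 and from 0.296 to 0.303, were similar to those inside it. By the size of the difference the exon 4 region ranked 3220 of 3389.

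The third region of Apoe, from 19696925 to 19697782, covers in Apoe-201 348 coding bp of exons 4 and 3 and 510 bp of introns. The authors' deposited table gives levels of 0.560 and 0.168, a difference of 0.391 over 58 cytosines. An FDR under 0.05 was deposited for 27 positions, and the other 31 are those nearest to the 3′ end, from 19696925 to 19697187. The largest statistic belonged to position 19697454, with a difference of 0.451 ± 0.0922 (deposited standard error) and an FDR of 0.00212. The 16 positions of exon 3 all had an FDR under 0.05, with levels between 0.598 and 0.622 in the first and between 0.157 and 0.172 in the second group. By its area score, the sum of the test statistics, this region ranked 59 of 3389. That score grows with the number of cytosines, 58 here against a median of 9 over all deposited regions. By the size of the difference the region ranked 1977, and the median size over all deposited regions was 0.405.

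Along Apoe the levels of both groups dipped in exon 4, from 0.741 down to 0.395 in the first and from 0.201 down to 0.112 in the second group of the authors' deposited table. Going from the 3′ end toward the start, the deposited level of the first group was 0.741 at 2911 bp from the start, 0.395 at 2681 bp and 0.622 at 1617 bp, the last of which is off CpG. At the same positions the deposited level of the second group was 0.201, 0.115 and 0.170. Between the last 2 of these positions the second group did not rise steadily. Its deposited level was 0.197 at 2108 bp, still in exon 4, and 0.125 at 1972 bp, in the intron between exons 4 and 3. The smallest difference, 0.280, was at 2681 bp, where the first group was lowest. From 2681 to 1406 bp all 130 tested positions in a row were listed and higher in the first group. By its number of positions this run ranked 7 among 132061 runs of listed positions in the table. Such a rank counts positions, and neighbouring positions share fitted levels. Of the 130 positions 120 lie on CpGs of the reference. An FDR under 0.05 was deposited for 27 of the 130, where 18.7% of all listed positions had one.

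**Figure D2:**
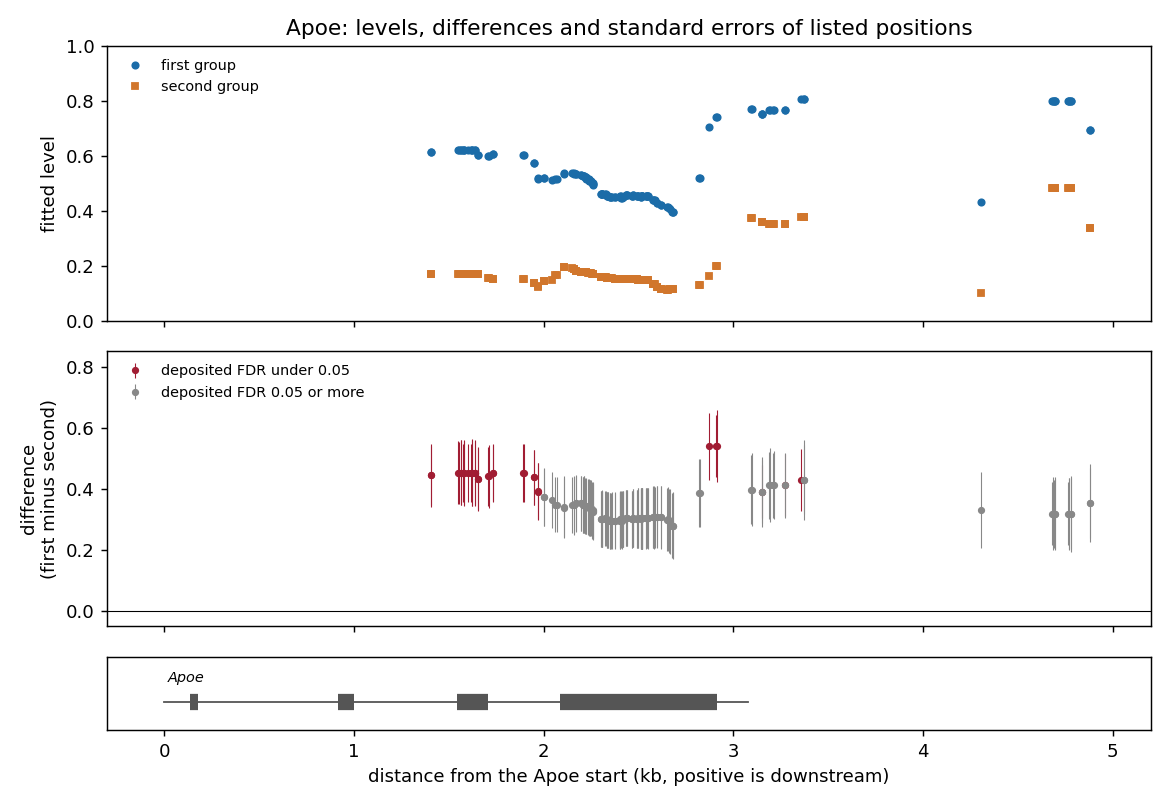
Apoe by distance in kb from its start: deposited levels of both groups (top), difference with the deposited standard error as bars (middle, red for an FDR under 0.05, grey otherwise), and the exons of Apoe-201 as boxes (bottom). Differences are 0.43 to 0.45 in exon 3, are near 0.30 in most of the coding part of exon 4 and reach 0.540 at the 3′ end.

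The start of Apoe lay outside the listed stretch. After the last listed position, 1406 bp past the start, the next one on the chromosome follows 83628 bp further on. By the row numbers, 3328 positions in between were tested and not listed. They have no coordinates in the table. The 1000 bp upstream of Apoe hold 16 CpGs, none of them listed, and whether each was tested is not known. RefSeq (GRCm38.p6) gives 3 promoter windows for Apoe, with 10, 12 and 11 CpGs, and none held a listed position. A position that is not listed has no deposited level, so its groups may differ by less than the limit of the list or with a larger error.

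Apoc1 (ENSMUSG00000040564.14, 19689481 to 19692660), whose product slows the uptake of lipoproteins, held the region with the highest area score of the cluster, rank 19 of 3389. By the size of the difference that region ranked 796. It spans 19691553 to 19692347 and covers the 148 coding bp of exon 3 and 647 bp of the introns around it in the transcript of 4 exons used here. The authors' deposited table gives levels of 0.740 in the first and 0.279 in the second group, a difference of 0.461 over 65 cytosines. Of these, 54 had an FDR under 0.05, the lowest being 1.42e-06 at position 19691591, which is off CpG, with a difference of 0.508 ± 0.0795 (deposited standard error). On a CpG the lowest was 6.24e-06 at position 19691842, with deposited levels of 0.742 and 0.227 and a difference of 0.515 ± 0.0840.

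Within this region the second group was lowest in its middle. The deposited level of the second group was 0.429 at the end toward exon 4 and 0.411 at the end toward exon 2. It was 0.229 at the run of CG printed above and lowest, at 0.227, beside that run. The first group stayed between 0.696 and 0.829. All 18 positions of the printed stretch had an FDR under 0.05. Over the whole gene 83 positions were listed, and from 19691420 to 19692535 all 82 tested positions in a row were listed, a run that ranked 21 among 132061. The 18 listed positions of the gene outside the region had no FDR under 0.05, with deposited differences from 0.285 to 0.384. The listed position nearest to the start of Apoc1 lies 11 bp from it.

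Between Apoc1 and Apoe 29 positions were listed, and 14 of them belong to the region over the Apoe 3′ end. None of the 31 positions listed between that region and the Apoc1 region had an FDR under 0.05. Their deposited differences ran from 0.228 to 0.354. A cluster of 13 of these positions, from 19694306 to 19694882, had deposited levels from 0.432 to 0.801 in the first and from 0.102 to 0.483 in the second group.

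Apoc4 (ENSMUSG00000074336.5, 19678083 to 19681479) had 1 region over its start, from 19681385 to 19681684. It covers 95 bp of the untranslated part of exon 1 and 205 bp upstream, and its first part also overlaps Gm44805, a read-through model of Apoc4 and Apoc2. The authors' deposited table gives levels of 0.711 and 0.323, a difference of 0.388 over 14 cytosines. An FDR under 0.05 was reached by 7, and the largest statistic belonged to position 19681461, which is off CpG, with 0.402 ± 0.0888 (deposited standard error) and an FDR of 0.00865. On a CpG it belonged to position 19681684, with 0.365 ± 0.0807 and an FDR of 0.00884 in the deposited table. The RefSeq promoter window of Apoc4 held 13 listed positions, and those of Apoc2, Apoe, Tomm40 and Nectin2 held none. For Apoc1 no promoter was matched.

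The largest difference of the cluster lay between genes. The region from 19683584 to 19684527 is 2105 bp upstream of Apoc4 and 4954 bp past the end of Apoc1. The authors' deposited table gives 0.722 in the first and 0.202 in the second group, a difference of 0.520 over 22 cytosines, rank 291 of 3389 by size. Of the 22 positions, 20 had an FDR under 0.05, down to 4.5e-08 at position 19684259, which is off CpG, where the difference was 0.519 ± 0.0744 (deposited standard error). On a CpG the lowest deposited FDR was 6.12e-07, at position 19684303, with a difference of 0.523 ± 0.0799. The CpG at 19683786, toward Apoc4, had the largest difference of all listed positions of the cluster, 0.670, with levels of 0.827 and 0.157. This region is poor in CpGs, with 1.06 per 100 bp and 42.4% G and C, and its mean level in the second group was the lowest of the 3 regions outside Apoe.

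**Figure D3:**
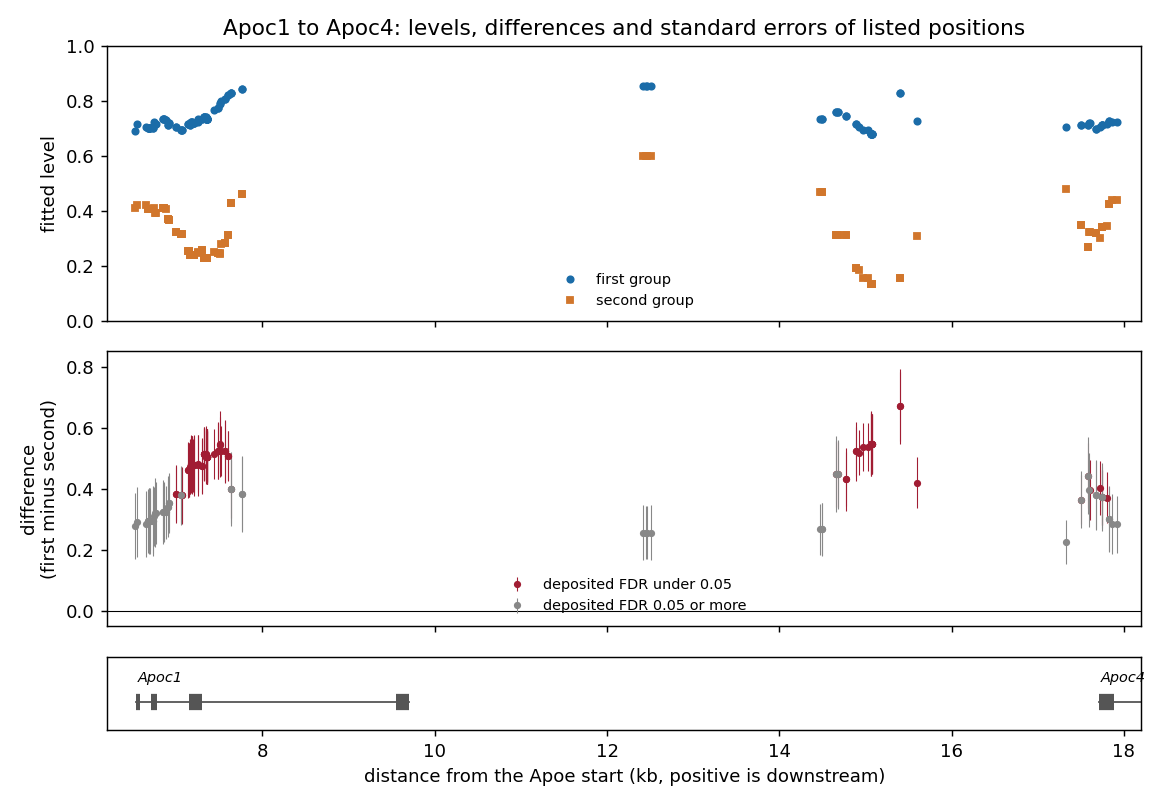
Apoc1, the stretch between the genes and the start of Apoc4 by distance in kb from the Apoe start, with deposited levels (top), differences with the deposited standard error (middle, red for an FDR under 0.05) and exons as boxes (bottom). The second group dips to 0.227 in Apoc1 and 0.133 between the genes, while no position of the first group is below 0.681.

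Apoc2 (ENSMUSG00000002992.17, 19671579 to 19677941) was touched by no region. It held 4 listed positions, at 2 CpGs. At the CpG at 19675096 the deposited levels were 0.701 and 0.214, a difference of 0.487 with an FDR of 0.00979 on one strand and 9.88e-06 on the other. At the CpG at 19677049 they were 0.876 and 0.609. The 2 regions within 10000 bp of Apoc2 are those at and upstream of the Apoc4 start. Between Apoc2 and Clptm1 lay the only 2 listed positions that were lower in the first group, both off CpG. Both had levels of 0.493 in the first and 0.782 in the second group, with FDRs of 0.624 and 0.703.

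Tomm40 (ENSMUSG00000002984.17, 19701313 to 19715438) and Nectin2 (ENSMUSG00000062300.14, 19716644 to 19750483) held no listed position. The 4 regions within 10000 bp of Tomm40 are those of Apoe and Apoc1. Nectin2 had neither a region nor a listed position within that distance. The gene bodies hold 245 and 549 CpGs, and the 1000 bp upstream of their starts 53 and 20.

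From the first to the last listed position of the window 978 positions were tested and 301 listed, or 30.8%, where the table lists 0.63% of all tested positions. The stretch is bounded by its own listed positions, so nothing is read from this share. The 62701 bp of the window above the last listed position held none. A region within 10000 bp was present at 9.19% of the 21938 protein-coding genes. Apoc1 had 6, a number that 23 genes reached, and Apoe had 4, which 99 genes reached. The nearest deposited regions outside the window were 159953 bp away beside Bloc1s3, with a difference of 0.427, and 4682426 bp away in Irgc1, with -0.424. The region farthest from any of the 6 genes inside the limit was the one 2105 bp from Apoc4. The nearest listed position outside was 20927 bp beyond the window, with a deposited difference of -0.261 and an FDR of 0.987.

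Among the 1808 deposited regions in which the first group was higher, the median levels were 0.740 in the first and 0.311 in the second group. For the regions at the Apoc4 start, in Apoc1 and at the Apoe 3′ end, between 40.5% and 53.4% of these regions had a level at most as high, in either group. For the region between the genes the share was 43.8% in the first and 17.4% in the second group. Both regions that cover coding sequence of Apoe were low in both groups: the share was 0.719% and 5.48% for the exon 4 region, and 8.19% and 9.07% for the region from exon 4 to intron 2, most of which is intron in Apoe-201.

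**Figure D4:**
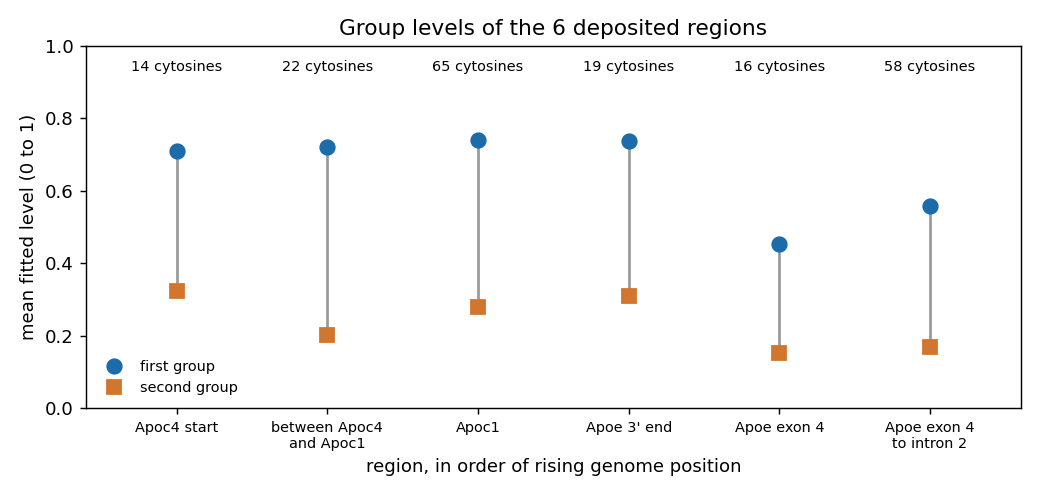
Mean fitted level (0 to 1) of the first group (blue circles) and the second group (orange squares) in the 6 regions in order of genome position, with the number of cytosines above each. The first group is at 0.711 to 0.740 in 4 regions and at 0.453 and 0.560 in the 2 regions that cover Apoe coding sequence, and the second group is below 0.33 in all 6.

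Motifs were searched on both strands in the 300 bp centred on each region. The composite element of ETS factors and IRF8 (GGAA, any 2 bases, GAAA) was in none of the 6, and in 11.2% of all deposited regions and 2.38% of those higher in the first group. The interferon response core (GAAA, any 2 bases, GAAA) was in none, against 5.28% of all. The ETS core GGAA, which the composite contains, was in all 6 windows, as in 97.1% of all, but in the exon 4 region of Apoe it lay outside the region's own 67 bp. The nuclear receptor element AGGTCA was in 2 windows, at the Apoc4 start and between Apoc4 and Apoc1, against 19.4% of all, and the whole Apoc1 region of 795 bp held 2 further matches outside its window. Its direct repeat with 4 bases between, the form that liver X receptors bind, was in none with up to 2 of 12 letters changed, against 3.57% of all. A match is a description of letters and not of binding.

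Other genes of lipoprotein and cholesterol handling were listed by class. Of these 38 genes, 7 (18.4%) had a region within 10000 bp, against the 9.19% of all protein-coding genes. Counting only regions of at least 10 cytosines, 4 (10.5%) had one, against 5.14% of all. The genes of the list are longer, with a median of 24965 bp against 17425 bp, and the part of length in these shares was not tested. Of their 11 regions, 9 were higher in the first group, against 53.3% of all deposited regions, and 4 of the 11 belong to Abca1. By class, regions were at 2 of 8 receptor genes, 1 of 5 export and transfer genes, 1 of 3 lipase genes, 2 of 5 genes of intracellular cholesterol, 1 of 7 regulator genes and 0 of 10 other apolipoprotein genes.

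Among receptors of apolipoprotein E, the authors' deposited table gives levels of 0.681 and 0.226 in an Lrp1 region and 0.726 and 0.350 in a Sorl1 region. An FDR under 0.05 was deposited for 2 of 8 positions in the Lrp1 region and for 0 of 8 in the Sorl1 region. For these and the following counts, the share over all listed positions was 18.7%. Abca1, the transporter that loads apolipoprotein E with lipid, had 4 regions in its body, with deposited differences from 0.314 to 0.440 and, in order of falling difference, 5 of 15, 3 of 10, 0 of 5 and 1 of 5 positions with an FDR under 0.05. Ch25h, which makes the oxysterol 25-hydroxycholesterol, had a region with levels of 0.687 and 0.189 and a deposited difference of 0.498, and 11 of its 14 positions had an FDR under 0.05. Rxra, the partner of liver X receptors, had 2, with deposited differences of 0.318 and 0.491, and 0 of 5 and 10 of 14 positions with an FDR under 0.05. The regions of Lipa, the lysosomal acid lipase, and Soat1, which esterifies cholesterol, were lower in the first group, with deposited differences of -0.350 and -0.414, and 2 of 6 and 0 of 27 positions with an FDR under 0.05.

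**Figure D5:**
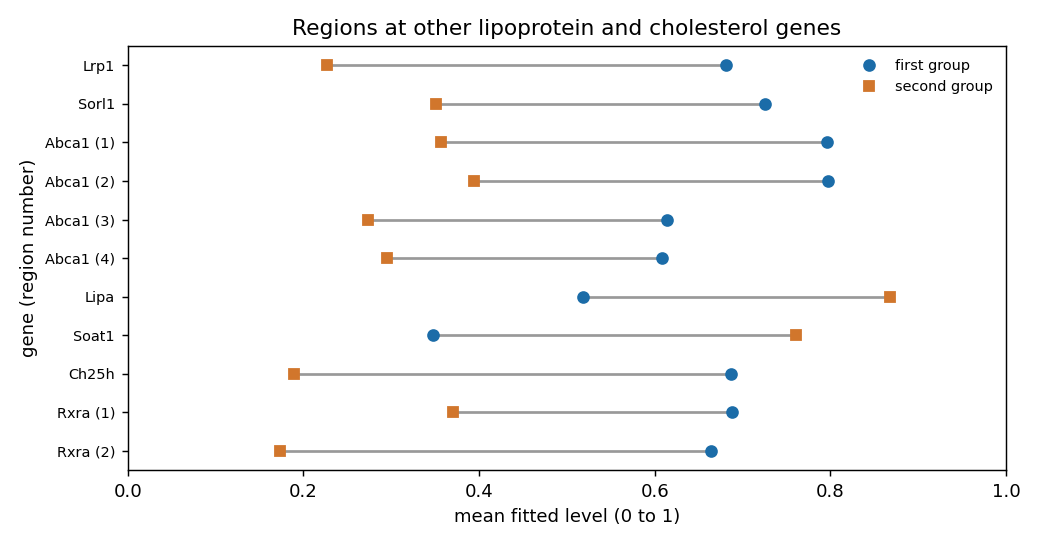
Mean fitted level (0 to 1) of the first group (blue circles) and the second group (orange squares) in the 11 regions at other lipoprotein and cholesterol genes, 1 row per region. The first group is higher in 9, and lower in the regions of Lipa and Soat1.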

How the data were processed

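DNA methylation was measured by whole-genome bisulfite sequencing in 4 samples, from 50 ng DNA each, amplified for 8 PCR cycles and read from both ends over 75 bp, per the labels' protocols. Trim Galore, Bismark and the build mm10 are named in the submitters' processing notes, without versions. Which program compared the groups is not given in the sources used here. Of each position the authors deposited a fitted level per group, the difference and standard error, a score (the test statistic), a p-value and FDR, the dispersions and a posterior probability. Of each region the authors deposited mean levels, their difference and an area score. The p-values are the authors' own, from 2 samples per group.

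Regions and positions were joined to GENCODE release M21 with Python 3.11.15 and pandas 2.3.3, and to RefSeq's GRCm38.p6 sequence. At all 301 positions a posterior recomputed with a difference of 0.1 was equal to the deposited one within 0.001. The deposited row numbers follow position and were read as an index of 42734461 tested positions. A position has its own dispersion where neither group has the commonest deposited value. The code that counts regions per gene was checked on simulated intervals with known counts, which tests the code and no result. Named were the 6 genes, genes overlapping or nearest to a region or cluster, every region with its position of largest statistic, and each listed lipoprotein gene with a region; the other single positions were chosen after their values were seen. The genes, lists and motifs were chosen with earlier results of these data known. Alternatives were other FDR limits and flanks, reference CpGs, own dispersions, clusters and region content.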

Additional observations from a re-analysis of the deposited data

How the results depend on the processing

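Of 25 alternatives, 21 left the value within 1.5 times the main count, within the 95% Clopper-Pearson interval of the share (counting error only) or within the median standard error of a region's positions, and none reversed. Some of the 21 could not have moved. Subsets of the 117 positions, all higher in the first group, must keep that direction, and every region met the limits on content and the shorter flank. The interval also treats positions as separate, although neighbouring ones share fitted values. The 117 positions with an FDR under 0.05 fell to 59 with an FDR under 0.001, to 7 when clusters within 500 bp were counted, and to 51 when distinct pairs of fitted levels were counted, an alternative chosen after seeing the data; each admits or groups fewer items by construction. With regions of at least 10 cytosines, 4 lipoprotein and cholesterol genes had a region, against 7. No paired analysis was possible because each table gives values per group and none per sample. For the same reason no replicate was left out and no coverage minimum was applied, and depth limits every value to an unknown degree.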

Other observations

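Of the 301 listed positions of the cluster, 43 were off the CpGs of the reference genome, which comes from the same strain as the mice. At 3 of the 6 regions the position of largest statistic was 1 of these. Of these 43, 42 carried the commonest dispersion value in at least 1 group, as did 59119 of the 59168 such positions in the whole table. In all, 242 of the 301 positions (80.4%) had their own dispersion in both groups, against 46.4% of all listed positions. The mean difference of each region over positions on reference CpGs differed from the deposited one by at most 0.00369.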
